A study of Mus musculus with 8 samples.

Results

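Iron-sulfur cluster assembly was followed through 9 genes, taken by symbol from the deposited tables: Isca1, Isca2, Iscu, Nfs1, Glrx5, Lyrm4, Hscb, Fdx1 and Iba57. All 9 were among the 55401 genes of the tables, and all 9 were among the 12122 genes abundant enough to test. RNA-seq was performed on AML12 cells, hepatocytes grown as a line from a mouse that carried a human TGFα transgene. The 8 dishes comprised 4 controls and 4 that had received Opti-ELF-WMF over 1 h. Opti-ELF-WMF is a train of 4 ms magnetic pulses with a peak of 100 mG (10 µT), stepped through frequencies from 1 to 8 Hz. Control cells came from the same batch of cultured cells and stood in a second incubator of the same model with the stimulator off, so an effect of the field and an effect of the incubator cannot be told apart. The dishes were separate samples of 1 cell line, and p-values here measure only the spread between them.

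Iron-sulfur clusters are cofactors of iron and sulfide that carry electrons or hold substrates in many enzymes of the mitochondrion, cytosol and nucleus, and the liver is rich in such enzymes. In the mitochondrial matrix, a cysteine desulfurase supplies sulfur to a scaffold protein, a chaperone pair releases the finished cluster from the scaffold, and a glutaredoxin and the A-type proteins pass it on or build larger clusters for enzymes such as aconitase and the respiratory complexes. The study discussed ISCA1 under the name MagR, a protein described as a magnetoreceptor in complex with a cryptochrome, and the comparison of exposed with control dishes asks here whether the transcripts of this machinery differed after exposure.

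The results below turn on pairs of related genes, and the coding sequences around the cysteines that bind the clusters show how far apart the pairs are for a sequencing read. Sequences are those of GENCODE M21 transcripts on GRCm38, written 5′ to 3′ in the coding direction, with cysteine codons in capitals. The first stretch of each A-type gene holds the single conserved cysteine codon and the second holds the pair near the end of the protein. Isca1 (ENSMUSG00000044792) lies on chromosome 13 from 59755409 to 59769810 on the minus strand, with its first stretch at chr13:59758936-59758983 in exon 3 and its second at chr13:59756858-59756902 in exon 4. Isca2 (ENSMUSG00000021241) lies on chromosome 12 from 84773251 to 84775088 on the plus strand, with its stretches at chr12:84773832-84773879 in exon 3 and chr12:84774664-84774711 in exon 4.
Isca1, first cysteine: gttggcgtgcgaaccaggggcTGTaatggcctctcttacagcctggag
Isca2, first cysteine: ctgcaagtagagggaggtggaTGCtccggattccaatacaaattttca
Isca1, cysteine pair: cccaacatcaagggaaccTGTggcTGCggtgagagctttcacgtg
Isca2, cysteine pair: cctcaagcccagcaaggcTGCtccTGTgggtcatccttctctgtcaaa

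The ferredoxins, which carry electrons through a cluster of their own, are shown for the same reason. Fdx1 (ENSMUSG00000032051) lies on chromosome 9 from 51943306 to 51963556 and Fdx2 (ENSMUSG00000079677) on chromosome 9 from 21067520 to 21073614, both on the minus strand. The stretch of Fdx1 joins exons 2 and 3 between 51948663 and 51957076, and that of Fdx2 joins exons 3 and 4 between 21068074 and 21073078, so each spans an intron.
Fdx1: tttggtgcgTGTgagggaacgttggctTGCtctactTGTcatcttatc
Fdx2: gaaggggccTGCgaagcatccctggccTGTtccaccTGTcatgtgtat

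The coding sequences of Isca1 and Isca2 were identical at 66.9% of 357 aligned bases, and those of Fdx1 and Fdx2 at 59.8% of 510 aligned bases. The longest run of bases that the transcripts of either pair shared was 10, far shorter than a read, so reads of these paralogs could be told apart.

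The libraries were described by the authors' TPM values, a measure corrected for transcript length and scaled to the same total in every sample. TPM keeps no sequencing depth, so the counting error of each value is unknown. Between 19386 and 20114 genes had a value above 0 in each dish. Transcripts of the 37 mitochondria-encoded genes took 8.69% to 9.42% of the total in control dishes and 5.99% to 7.69% in exposed dishes, and because the totals are fixed this difference moves every other gene upward in exposed dishes. Over all tested genes the median log2 fold change was 0.026. Of the hepatocyte markers examined 11 of 12 were abundant enough to test, with a summed TPM of 5695.2 to 5957 in control and 6047.3 to 6273.8 in exposed dishes. The keratins Krt8 and Krt18 made up most of this sum and were the markers with an unadjusted p under 0.05 in the higher direction (log2 fold change 0.071 and 0.091; limma, adjusted p = 0.194 and 0.166). Albumin ran the other way, from 52.55 to 58.22 TPM in control and from 46.12 to 53.04 TPM in exposed dishes (log2 fold change -0.15; limma, unadjusted p = 0.0168, adjusted p = 0.210), and the values for Apoa1 and Ttr were -0.22 and -0.039 (limma, adjusted p = 0.420 and 0.719). Cps1, an enzyme of the urea cycle, was at or near 0 (0 to 0.04 TPM). Of 7 mesenchymal markers only Vim was abundant (1304 to 1509 TPM), and of 8 immune and endothelial markers only Cd68 was tested (1.05 to 2.21 TPM), with Adgre1, Clec4f and Cdh5 at 0 in every dish. In bulk RNA, fewer cells of a type and less RNA per cell cannot be told apart.

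The 9 genes covered a wide range of abundance, and the order of their levels was much the same in every dish. TPM is scaled by length, so levels can be set beside each other. Iscu, the scaffold on which the cluster forms, had the highest mean over the 8 dishes at 84.3 TPM. Fdx1, a ferredoxin that takes electrons from NADPH through its reductase, followed at 75.9 TPM, and although it was below Iscu in 8 of 8 dishes the ranges of both genes over the dishes overlapped. Isca1 came next at 59.3 TPM and its range met neither neighbour's. Glrx5, the glutaredoxin that carries a cluster away from the chaperones, had a mean of 44.6 TPM, Nfs1, the cysteine desulfurase, 35.8 TPM, and Isca2, the second A-type protein, 34.4 TPM. The ranges of Glrx5 and Nfs1 overlapped, and Nfs1 was above Isca2 in only 5 of 8 dishes, so the order of Nfs1 and Isca2 was within their spread. Hscb, the co-chaperone that hands ISCU to HSPA9, stood at 15.7 TPM, Iba57, a partner of the A-type proteins, at 5.87 TPM, and Lyrm4, the small subunit that stabilises NFS1, at 3.46 TPM, each below every value of the gene before it. Summed over the 9 genes, the level was 359.3 ± 13.0 TPM in control and 359.2 ± 9.08 TPM in exposed dishes (mean ± SD, n = 4 each).

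**Figure D1:**
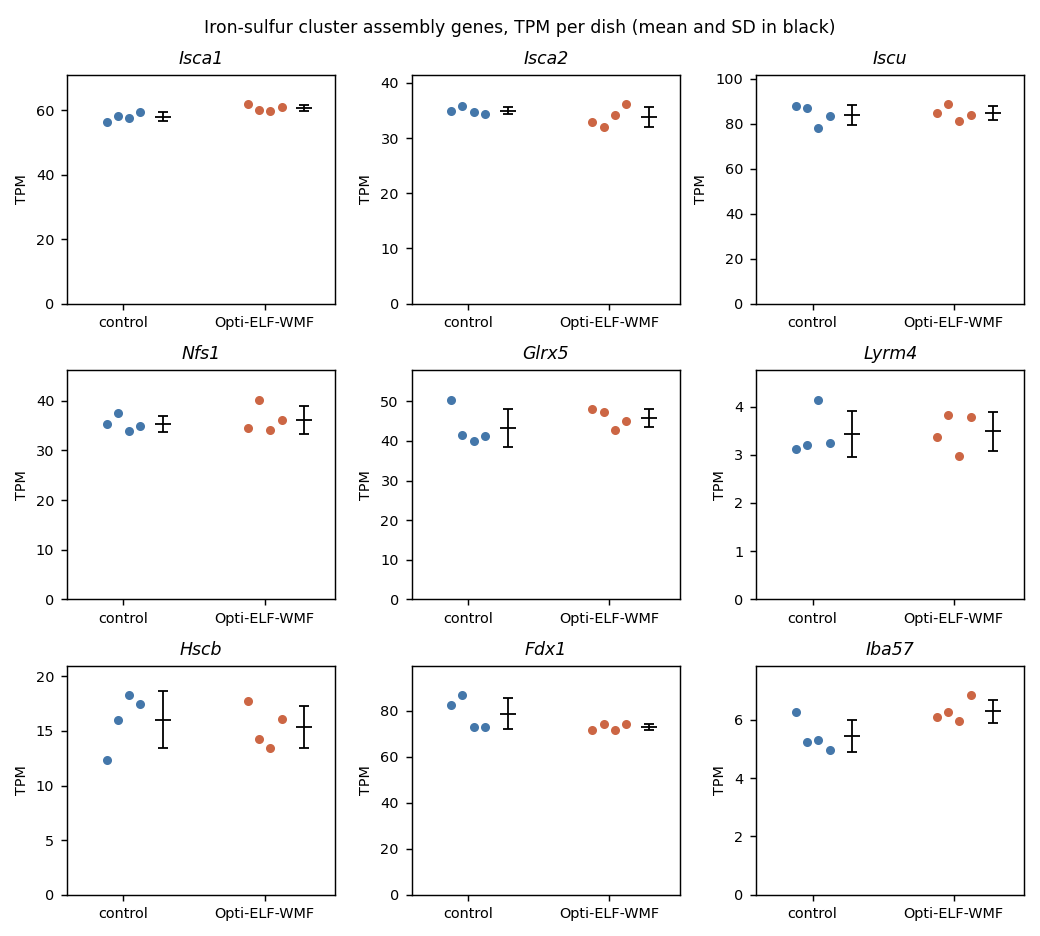
TPM (y axes, from 0) of the 9 iron-sulfur cluster assembly genes in the 4 control and the 4 Opti-ELF-WMF dishes, 1 point per dish with the mean and SD in black. The Isca1 points of the exposed dishes (59.77 to 61.81) all sit above those of the control dishes (56.21 to 59.58), while the points of the other 8 genes overlap.

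None of the 9 genes differed between conditions after adjustment over all genes. With limma on log2(TPM + 1) and Benjamini-Hochberg adjustment, 0 of the 9 genes and 0 of all 12122 tested genes (0%) had an adjusted p under 0.05. At an unadjusted p under 0.05 the test picked 2 of the 9, Isca1 and Iba57, against 1894 of all tested genes (15.6%). Both were higher in exposed dishes, while 1451 of all tested genes (12%) were higher and 443 (3.65%) were lower. Both picks depended on the scaling: 0 of the 9 genes had an unadjusted p under 0.05 after upper-quartile or median-of-ratios scaling of the TPM columns (13% and 12.3% of all tested genes did), and after rescaling without mitochondria-encoded genes the 1 gene that had was Fdx1, lower in exposed dishes (11.3% of all tested genes). Groups did not overlap for 1 of the 9 genes, Isca1, and for 9.87% of all tested genes. The median log2 fold change of the 9 genes was 0.022, below the 0.026 of all tested genes, and 6 of the 9 were above 0, against 63.7% of all tested genes. In these counts the 9 genes sat close to the background.

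Isca1, the A-type protein that with ISCA2 and IBA57 completes the larger clusters, was slightly higher in every exposed dish. It was at 56.21, 58.37, 57.59 and 59.58 TPM in control dishes 1 to 4 and at 61.81, 60.17, 59.77 and 60.86 TPM in exposed dishes 1 to 4. The lowest exposed dish was just above the highest control dish, so the groups did not overlap. The means were 57.9 ± 1.41 and 60.7 ± 0.893 TPM (SD, n = 4 each), a difference of 4.69%. On the log2 scale the difference was 0.065 with a 95% interval from 0.0016 to 0.13 (limma, unadjusted p = 0.0456, adjusted p = 0.309). Isca1 was among the least variable genes: its residual SD of 0.029 on the log2 scale was lower than that of all but 3.65% of tested genes, whose median was 0.078. Larger differences in Iba57, Glrx5 and Fdx1 did not separate the groups.

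The separation of Isca1 depended on how the dishes were scaled. After upper-quartile scaling of the TPM columns, median-of-ratios scaling, or rescaling without mitochondria-encoded genes, its log2 fold change was 0.053, 0.043 and 0.036, and the groups overlapped in all 3 cases (limma, adjusted p = 0.526, 0.621 and 0.710). Under these scalings the groups were apart for 8.24%, 7.94% and 7.08% of all tested genes. The direction stayed the same. Under the same scalings the share of genes higher in exposed dishes, among those with an unadjusted p under 0.05, went from 76.6% to 63.3%, 55.2% and 50.7%. The summed hepatocyte markers, carried by the keratins, and Vim were higher in exposed dishes like Isca1, whereas albumin was lower, with groups apart under median-of-ratios scaling and under rescaling without mitochondria-encoded genes. Their part in the difference of Isca1 was not tested.

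**Figure D2:**
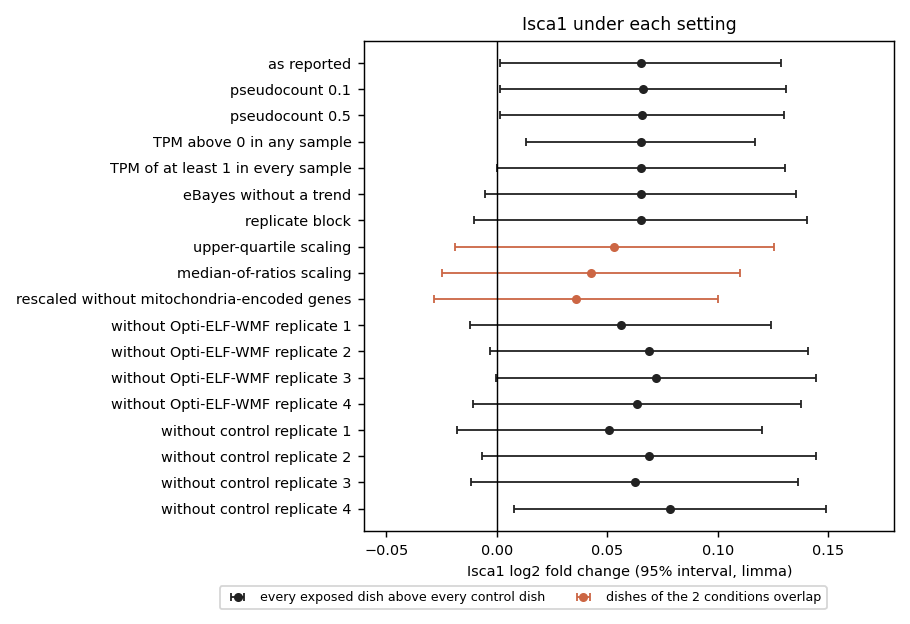
Log2 fold change of Isca1, Opti-ELF-WMF against control (x axis, limma estimate with its 95% interval), under each setting (y axis). Points run from 0.036 to 0.078 and all lie above 0, but most of the 95% intervals include 0. The orange points mark the 3 scalings under which dishes of the 2 conditions overlap.

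Genes that share sequence with Isca1 were near 0 in these cells. The predicted gene AK157302 matched 98.95% of 1914 of the 1942 bases of the Isca1 transcript but averaged only 0.179 TPM, and Gm49354, which overlaps Isca1 on the same strand, averaged 0.134 TPM. Adding both to Isca1 gave a log2 fold change of 0.071, with the groups still apart. Etohd2, an antisense gene that overlaps 187 bases of the transcript, averaged 0.758 TPM. The library kit marks strand, but the strand setting of the counting is not given in the sources used here.

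Isca2 and Iba57, which act with ISCA1, stood on opposite sides of 0. Isca2 was at 34.94, 35.84, 34.73 and 34.34 TPM in control dishes and at 32.93, 32.0, 34.18 and 36.09 TPM in exposed dishes. Of the exposed dishes 3 were below every control dish and the fourth was above every control dish. The log2 fold change was -0.049 with an interval from -0.14 to 0.042 (limma, adjusted p = 0.622). Iba57, a folate-binding protein required late in the pathway, was at 6.27, 5.23, 5.32 and 4.98 TPM in control dishes and at 6.11, 6.27, 5.96 and 6.84 TPM in exposed dishes. Control dish 1 lay as high as the exposed dishes, and the other control dishes were below all of them. Its mean was 5.45 ± 0.565 TPM in control and 6.30 ± 0.385 TPM in exposed dishes (SD, n = 4 each), and its log2 fold change of 0.18 (0.012 to 0.35) was the largest of the 9 genes (limma, unadjusted p = 0.0383, adjusted p = 0.286). Under the scalings named above it was between 0.16 and 0.17, so its direction did not change, and the unadjusted p was 0.0504 to 0.0670 (limma, adjusted p = 0.386 to 0.484).

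The genes of sulfur supply and scaffold were level between conditions within wide limits. Nfs1 was at 35.3, 37.59, 33.83 and 34.83 TPM in control and at 34.48, 40.18, 34.03 and 36.05 TPM in exposed dishes, with the highest and the second-lowest values both in the exposed group, and its log2 fold change was 0.029 (-0.095 to 0.15; limma, adjusted p = 0.849). Gm28036 overlaps Nfs1 on the same strand, shares 258 identical bases with it and held 15.81 to 26.34 TPM, and with its values added the log2 fold change of Nfs1 was 0.12 with groups that overlapped. The level of Nfs1 is therefore uncertain where the counting could split reads between these genes, and Romo1 overlaps it on the opposite strand. Lyrm4 ranged from 3.12 to 4.14 TPM in control and from 2.97 to 3.83 TPM in exposed dishes (log2 fold change 0.022, -0.20 to 0.24; limma, adjusted p = 0.944), and it shares 115 antisense bases with Fars2, which averaged 11.6 TPM. Iscu ranged from 77.9 to 87.75 TPM in control and from 80.98 to 88.54 TPM in exposed dishes (log2 fold change 0.0096, -0.086 to 0.11; limma, adjusted p = 0.943). The sign for Iscu turned negative under all 3 scalings and that for Lyrm4 under rescaling without mitochondria-encoded genes, so no direction is given for either.

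In the carrier and co-chaperone genes, control dish 1 lay outside the range of every other dish. Glrx5 was at 50.37, 41.6, 39.93 and 41.38 TPM in control dishes and at 48.11, 47.28, 42.85 and 44.99 TPM in exposed dishes. Control dish 1 was above every other dish, and the other 3 control dishes were below every exposed dish. The log2 fold change was 0.083 (-0.073 to 0.24; limma, adjusted p = 0.623), and without control dish 1 it was 0.16 (limma, adjusted p = 0.199). Hscb was at 12.36, 16.04, 18.25 and 17.51 TPM in control dishes and at 17.76, 14.22, 13.45 and 16.08 TPM in exposed dishes. Here control dish 1 was the lowest of all 8 dishes, and the groups overlapped. Hscb was the least reproducible of the 9 genes, with a residual SD of 0.21 on the log2 scale, higher than in 90.8% of tested genes, and its log2 fold change was -0.051 (-0.32 to 0.22; limma, adjusted p = 0.885). Without control dish 1 the log2 fold change was -0.16 for Hscb and 0.24 for Iba57 (limma, adjusted p = 0.451 and 0.193).

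Fdx1, which serves steroid hydroxylation and protein lipoylation more than cluster formation, had the lowest log2 fold change of the 9 genes. It was at 82.58, 86.64, 72.86 and 73.08 TPM in control dishes and at 71.82, 74.37, 71.85 and 74.09 TPM in exposed dishes. Control dishes 1 and 2 were above every exposed dish, whereas control dishes 3 and 4 lay within the exposed range. The means were 78.8 ± 6.92 and 73.0 ± 1.39 TPM (SD, n = 4 each), and the log2 fold change was -0.10 (-0.23 to 0.019; limma, adjusted p = 0.402). After rescaling without mitochondria-encoded genes it was -0.13, and the groups no longer overlapped (limma, unadjusted p = 0.0318, adjusted p = 0.384). Without control dish 2 it was -0.058 (limma, adjusted p = 0.666).

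Fdx2, the ferredoxin that gives electrons to cluster formation on the scaffold, had a log2 fold change of the opposite sign. It was at 92.12, 91.95, 89.11 and 91.52 TPM in control dishes and at 95.28, 101.7, 97.42 and 100.2 TPM in exposed dishes. The groups did not overlap, as for 9.87% of all tested genes. Its log2 fold change was 0.11 (0.049 to 0.18; limma, unadjusted p = 0.00286, adjusted p = 0.134). The groups also stayed apart under the 3 scalings. Gm38431 and Gm49373, predicted genes that overlap it on the same strand, together held 1.97 to 4.58 TPM, and with them added the log2 fold change was 0.10.

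Ratios of partner genes within a dish do not depend on how the dish was scaled, and 6 were compared. The ratio of Fdx1 to Fdx2 was 0.896, 0.942, 0.818 and 0.799 in control dishes and 0.754, 0.731, 0.738 and 0.739 in exposed dishes. Every exposed dish was below every control dish, and the exposed dishes were the more alike. The mean ratio was 0.864 ± 0.0674 in control and 0.741 ± 0.00948 in exposed dishes (SD, n = 4 each), a log2 difference of -0.22 (exact two-sided permutation test, p = 0.0286, adjusted p = 0.171 over the 6 ratios). This is the smallest p that the 70 assignments of 8 dishes allow, and adjusted over 6 ratios it could pass 0.05 only if 4 ratios reached it. The difference was -0.18 without control dish 2, where it was smallest, and -0.26 without control dish 4.

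The ratio of Isca1 to Isca2 was 1.61, 1.63, 1.66 and 1.74 in control dishes and 1.88, 1.88, 1.75 and 1.69 in exposed dishes. One exposed dish fell within the control range, and the log2 difference was 0.12 (exact two-sided permutation test, p = 0.0571, adjusted p = 0.171). The ratio of Isca1 to Iba57 averaged 10.7 ± 1.27 in control and 9.66 ± 0.557 in exposed dishes (SD, n = 4 each), with a log2 difference of -0.15 (exact permutation test, p = 0.2, adjusted p = 0.4). For Nfs1 to Lyrm4, Iscu to Nfs1 and Iscu to Hscb the log2 differences were 0.0019, -0.020 and 0.063, with exact permutation p = 1, 0.629 and 0.771, and the dishes of the conditions overlapped in each.

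**Figure D3:**
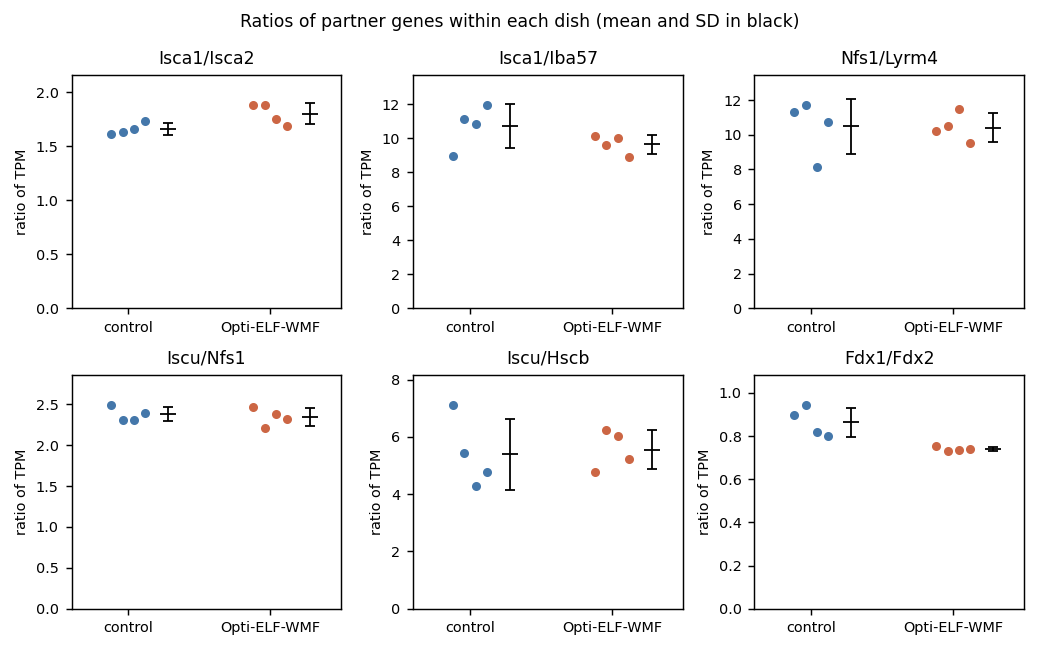
Ratio of TPM within each dish (y axes, from 0) for 6 pairs of partner genes in the 4 control and the 4 Opti-ELF-WMF dishes, 1 point per dish with the mean and SD in black. Only for Fdx1/Fdx2 do the groups not overlap, with exposed dishes between 0.731 and 0.754 and control dishes between 0.799 and 0.942.

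The pathway around the 9 genes was read from further lists. Of 13 other genes of mitochondrial assembly, 2 had an unadjusted p under 0.05 (15.6% of all tested genes did), both higher in exposed dishes, and the median log2 fold change was 0.058 against 0.026. The share of genes with such a p was close to the background. The same 2 genes had an unadjusted p under 0.05 under each of the 3 scalings (13%, 12.3% and 11.3% of all tested genes did). Besides Fdx2 this was Hspa9, the chaperone that works with HSCB, which ranged from 446.5 to 470.9 TPM in control and from 473.3 to 499.3 TPM in exposed dishes without overlap (log2 fold change 0.096; limma, unadjusted p = 0.00425, adjusted p = 0.142). Under each of the 3 scalings the groups of Hspa9 overlapped. Bola3, which helps deliver clusters, and Grpel1, the exchange factor of HSPA9, had log2 fold changes of 0.12 and 0.081 (limma, adjusted p = 0.359 and 0.364).

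In the cytosolic assembly pathway 4 of 11 genes had an unadjusted p under 0.05 (15.6% of all tested genes), with a median log2 fold change of 0.045 against 0.026. The count was 2 of 11 after upper-quartile and after median-of-ratios scaling (13% and 12.3% of all tested genes), and 1 of 11 after rescaling without mitochondria-encoded genes (11.3%). Glrx3, a cytosolic glutaredoxin, ranged from 236.1 to 241.4 TPM in control and from 246.6 to 264.7 TPM in exposed dishes (log2 fold change 0.081; limma, adjusted p = 0.188). Nubp1, part of the cytosolic scaffold, and Ciao2a, a targeting factor, were higher by 0.12 and 0.090 on the log2 scale (limma, adjusted p = 0.222 and 0.292). Ndor1, the reductase that feeds electrons into the pathway, was the one that was lower: it was at 31.19, 34.66, 31.68 and 31.33 TPM in control dishes and at 25.79, 29.84, 29.35 and 30.27 TPM in exposed dishes. Its groups did not overlap, and the log2 fold change was -0.16 (limma, adjusted p = 0.223). Ndor1 had 3 identifiers, and these values are only those of the identifier with the highest mean. Of these 4 genes, only Ndor1 kept groups apart under both median-of-ratios scaling and rescaling without mitochondria-encoded genes.

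**Figure D4:**
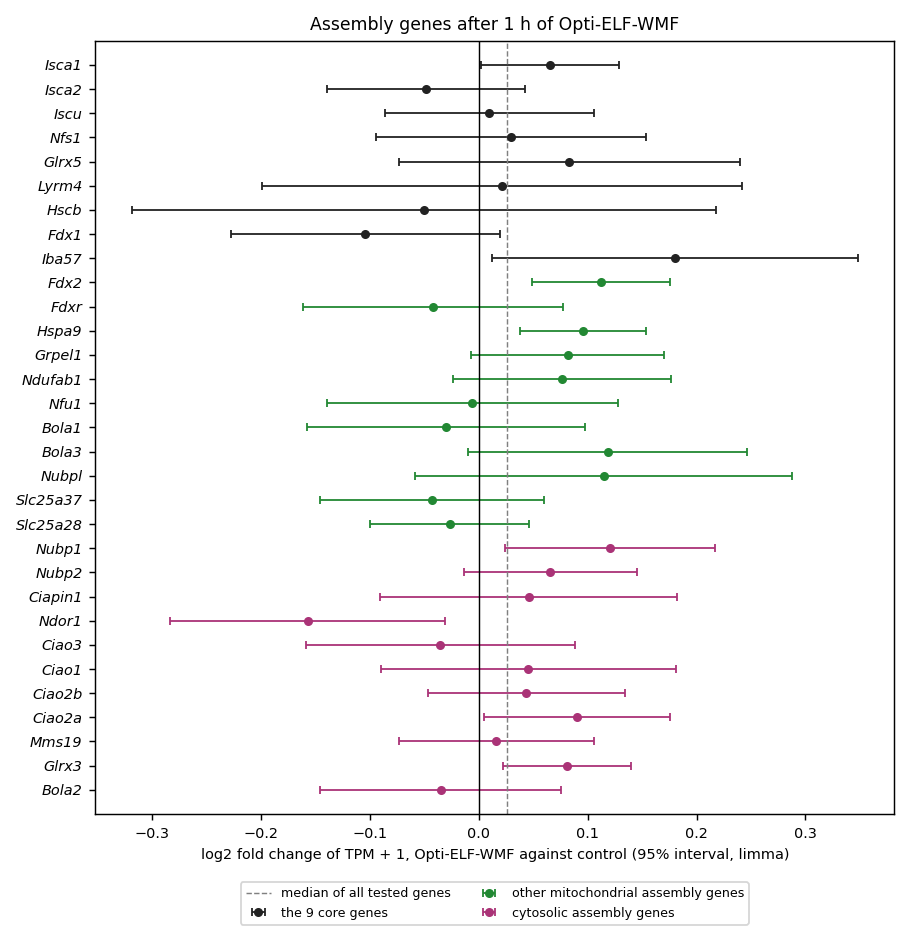
Log2 fold change of TPM + 1, Opti-ELF-WMF against control (x axis, limma estimate with its 95% interval), for the 9 core genes in black, 11 of the 13 other mitochondrial assembly genes in green and 11 cytosolic assembly genes in purple. The dashed line is the median of all tested genes (0.026), and most intervals include it.

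Proteins that carry the clusters were examined as the recipients of the pathway. All 15 genes of mitochondrial cluster proteins had a log2 fold change above 0, as did 63.7% of all tested genes, with a median of 0.075 against 0.026. This sign count is for TPM as deposited, whose fixed totals move nuclear genes upward in exposed dishes. Ndufv1 (0.0145) and Etfdh (0.0221) were below the median of all tested genes. After upper-quartile scaling the median of the list was 0.064 against 0.0149. An unadjusted p under 0.05 in the higher direction was found for 7 of the 15, against 12% of all tested genes, and for 3 of the 15 after rescaling without mitochondria-encoded genes, against 5.72%. The list includes nucleus-encoded subunits of the electron transport chain and was chosen with results for that chain known, so its direction is not independent evidence. Cisd1, a cluster protein of the outer mitochondrial membrane, was at 44.72, 45.07, 37.9 and 43.71 TPM in control dishes and at 51.34, 51.23, 46.89 and 50.38 TPM in exposed dishes. Its groups did not overlap, also after the 2 scalings named for Ndor1, and the log2 fold change was 0.22 (limma, adjusted p = 0.139). Sdhb, the cluster-bearing subunit of complex II, ranged from 117.7 to 125.2 TPM in control and from 126.7 to 135.8 TPM in exposed dishes (log2 fold change 0.098; limma, adjusted p = 0.179). Ndufv2, a subunit of complex I, and Cisd3, a matrix relative of Cisd1, had log2 fold changes of 0.10 and 0.15 (limma, adjusted p = 0.194 and 0.202).

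Of 22 genes of cytosolic and nuclear cluster proteins, 20 were abundant enough to test, and 3 of these had an unadjusted p under 0.05 (15.6% of all tested genes), with a median log2 fold change of 0.029 against 0.026. The share was close to the background. Prim2, the large primase subunit, and Elp3, a tRNA-modifying enzyme, were higher by 0.13 and 0.081, and Rtel1, a DNA helicase, had a log2 fold change of -0.17 (limma, adjusted p = 0.169, 0.226 and 0.316). Brip1, a helicase of DNA repair, had 0.16 (limma, adjusted p = 0.370). Dpyd and Rsad2 were below the abundance limit, with at most 0.01 and 0.36 TPM in any dish.

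Cryptochromes, the partners proposed for ISCA1 in magnetoreception, were expressed at low to moderate levels. Cry1 ranged from 16.6 to 17.43 TPM in control and from 17.02 to 18.73 TPM in exposed dishes (log2 fold change 0.049, -0.046 to 0.14; limma, adjusted p = 0.636). Cry2 ranged from 6.11 to 7.25 TPM in control and from 6.21 to 6.73 TPM in exposed dishes (log2 fold change -0.030, -0.17 to 0.11; limma, adjusted p = 0.868). The dishes of the conditions overlapped for both genes.

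The genes whose log2(TPM + 1) followed Isca1 most closely over the 8 dishes were outside the pathway. They were Tmem14a, Acbd5, Pinx1, Galk1 and Rrbp1, with Pearson's r of 0.978, 0.957, 0.951, 0.949 and 0.943 and Spearman's rho from 0.905 to 1. Without the 2 dishes in which Isca1 lay farthest from its median, control dishes 1 and 3, r was between 0.858 and 0.981. Among the most opposite were Nr4a2 and Pnrc1, with r of -0.948 and -0.941. These values are the extremes of 12121 genes, and since dishes share a condition and a scaling they are given as a description only. Among the other assembly genes named here Fdx2 had r = 0.643, rank 1164, while of the other 8 members the nearest was Hscb, with r = 0.377 and rank 3531. Which member was nearest depended on the dishes: without control dishes 1 and 3, Hscb had r = 0.271 and Glrx5 was nearest with r = 0.822. With the mean of each condition subtracted, r over the 8 dishes was -0.237 for Fdx2 and 0.817 for Hscb.

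The regions just upstream of the genes were compared as a sequence feature that the choice of genes did not use. RefSeq start sites on GRCm38.p6 were matched for 7 of the 9 genes, and their 250 upstream bases had a GC content from 48.0% to 72.8% (median 62.4%), against a median of 52.4% over 32851 promoters. The ETS motif CCGGAAG, sought on both strands, was present upstream of Nfs1, Isca2 and Isca1, 3 of the 7, and in 6.91% of all promoters. An NRF1-like motif, in which any base was allowed at a free position, was present upstream of Isca1, 1 of the 7, and in 3.74% of all promoters. Upstream refers here to the RefSeq start, which can differ from the GENCODE bounds given above. The windows of Isca1 (chr13:59769790-59770039), Isca2 and Lyrm4 reach into the GENCODE genes, and the NRF1-like match lies within the GENCODE bounds of Isca1. The match upstream of Isca1 was not a palindrome, and the share of all promoters counts every base at the free position. These are matches of letters in a window and no measure of binding. No share was taken among promoters of like GC content, so an excess over other promoters was not tested.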

How the data were processed

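Poly(A) RNA of 8 AML12 dishes was sequenced by the authors with a stranded kit as paired-end reads. The submitters' processing notes list Trimmomatic 0.39, STAR 2.7.4a, RSEM 1.3.3 and the build mm10; the annotation is not given in the sources used here. The deposited values are TPM, which sum to 1000000 per dish, so depth is unknown and no interval for counting error or detection floor is given. No dishes shared more than 3.79% of values.

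Genes with TPM of at least 1 in at least 4 dishes were compared by limma 3.58.1 in R 4.3.3 (lmFit, eBayes with trend) on log2(TPM + 1), a scale that understates changes of low genes, with Benjamini-Hochberg adjustment over all tested genes. Intervals are 95%. Ratios were compared by exact permutation. Groups came from the sample labels. Of the identifiers 55141 of 55401 matched GENCODE M21. Similar transcripts were found with BLAST 2.17.0. Simulated data with a log2 change of 1 gave 97.0% of 200 changed genes back (12026 genes, 7 false calls), with a change of 0.2 31.2% of 199 (12024 genes, 4 false calls), and without change 0 calls (12016 genes). The simulated noise was independent for each gene and dish. It held no shift shared by the genes of a dish, so these figures do not cover such a shift. Of the lists, all 9 genes, the 4 with the smallest p in every other assembly or cluster protein list, those below the limit, the cryptochromes and Hspa9, and the 5 most and 3 least correlated with Isca1 were to be named, of which some are not reported here. Where a symbol had several identifiers, the one with the highest mean was used. Members and lists were chosen with earlier results of these data known. Alternatives covered the pseudocount, filter, scaling, trend, replicate block and each dish in turn. Models that need read counts were not used, TPM being no count.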

Additional observations from a re-analysis of the deposited data

Results flagged for a closer look

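In groups of 4 dishes, a dish was singled out when its gap to the nearest other dish was more than Dixon's limit allows for the range of the group. This held for 5 of 70 groups of gene and condition, where chance alone gives about 1 in 20, or 3.5. Glrx5 was at 50.37 TPM in control dish 1, against 39.93 to 41.6 TPM in the other control dishes. Lyrm4 was at 4.14 TPM in control dish 3, against 3.12 to 3.25 TPM. Outside the 9 genes, Ndor1 was at 34.66 TPM in control dish 2 (31.19 to 31.68 TPM in the others), Glrx3 at 236.1 TPM in control dish 3 (241.3 to 241.4 TPM) and Cry1 at 18.73 TPM in exposed dish 2 (17.02 to 17.31 TPM).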

How the results depend on the processing

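No alternative gave any of the 9 genes, or any gene of the 4 other assembly and cluster protein lists, an adjusted p under 0.05 (limma). Over all genes 1 gene, 1110028F11Rik, passed with TPM of at least 1 in every sample, with upper-quartile scaling, with median-of-ratios scaling and with eBayes without a trend, and leaving out 1 dish at a time gave 0 to 6, the 6 without exposed dish 2. The log2 fold change of Iscu turned to -0.0023 with upper-quartile scaling, -0.0129 with median-of-ratios scaling and -0.0198 when rescaled without mitochondria-encoded genes, and under the last that of Lyrm4 turned to -0.0017; the cause was not tested. Leaving out 1 dish at a time also turned signs: the log2 fold change ran from -0.0258 to 0.0308 for Iscu, from -0.0147 to 0.0951 for Lyrm4, from -0.0207 to 0.0579 for Nfs1 and from -0.1631 to 0.0125 for Hscb, and the log2 difference of the ratio ran from -0.0443 to 0.0085 for Iscu to Nfs1, from -0.1131 to 0.0599 for Nfs1 to Lyrm4 and from -0.0399 to 0.2047 for Iscu to Hscb. Isca1 ran from 0.051 to 0.0785, Isca2 from -0.0797 to -0.0235, Glrx5 from 0.0469 to 0.1562, Fdx1 from -0.14 to -0.0577, Iba57 from 0.145 to 0.239, and the ratio of Fdx1 to Fdx2 from -0.2556 to -0.176. Genes with an unadjusted p under 0.05 numbered 1451 higher and 443 lower as reported, 994 and 577 with upper-quartile scaling, 823 and 669 with median-of-ratios scaling, 693 and 675 rescaled without mitochondria-encoded genes, and 1733 and 832 with TPM above 0 in any sample. Same-numbered dishes did not deviate together (r from -0.042 to 0.026 across genes), and with the replicate number as a block 0 genes passed and the log2 fold change of Isca1 was 0.065 (limma, adjusted p = 0.380). The exact sign-flip test over 4 numbered pairs cannot go below 0.125. Adding near-identical copies to Isca1, Iscu and Nfs1 was chosen after the data were seen. TPM keeps no depth, so differences of a few percent, such as that of Isca1, rest on the spread of 4 dishes a group.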
